A study of Zea mays with 24 samples.

Results

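Leaves of the maize inbred lines W23 and Wf9 were compared on a pilot Affymetrix GeneChip for maize. The samples were the 12 arrays labelled W23 or Wf9 among 24 arrays, the others being from the inbreds B73 and Mo17. An inbred line is a genetically uniform stock kept by self-pollination, and no treatment or transgene is named for any group. For each line, RNA of the third, the fourth and the fifth leaves was pooled from several greenhouse plants in 3 separate growths, and the 2 arrays made from each RNA were averaged before any comparison. The labels give no plant age or hour of collection, and a whole leaf mixes many cell types, so that fewer cells of a type and less RNA per cell cannot be told apart. An array reports a signal in arbitrary units for each probe set, a group of short probes made for 1 transcript sequence. A sequence difference between the lines under the probes and a difference in RNA level cannot be told apart in such signals.

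A maize leaf fixes carbon by the C4 route, in which mesophyll cells capture CO2 and pass it as a C4 acid to the bundle sheath around the veins. Water reaches these cells through the xylem and crosses their membranes partly through aquaporins, channel proteins of the plasma membrane (PIP), the vacuole membrane (TIP) and related families (NIP, SIP). Glutathione transferases attach glutathione to herbicides and to reactive products of metabolism, and maize carries a large family of them. The named genes on this array include many members of both families.

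Photosynthesis transcripts were bright and seed transcripts were at background in both lines. Summed over 18 probe sets for light harvesting, photosystems and ferredoxins, the signal was 100875 to 132431 in the W23 replicates and 86474 to 139257 in those of Wf9. Of the 18 probe sets for seed storage and embryo genes, all 18 lay at or below background in every replicate of both lines, with sums of 57.4 to 73.3 in W23 and 51.8 to 78.9 in Wf9. Background was set at 16.7 units, which 99% of the signals of 44 unspiked control probe sets did not exceed. Among 11 probe sets for pollen genes, 10 in W23 and 9 in Wf9 were at or below background in all replicates, and the sums were 77.5 to 95.5 and 103 to 146. The 2 root probe sets summed to 21.4 to 30.3 in W23 and to 18.2 to 26.7 in Wf9. Ratios of 3′ to 5′ signal, a sign of RNA integrity, overlapped between the lines, at 1.7 to 1.91 in W23 and 1.59 to 2.03 in Wf9 for glyceraldehyde-3-phosphate dehydrogenase. Signal of the 18S ribosomal RNA control was 75.2 to 256 in W23 and 32.4 to 83.7 in Wf9, and its part in the results was not tested.

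The replicates did not stand equally far apart. Over 2736 probe sets above 100 units on all 12 arrays, technical pairs of arrays had log2 differences with an SD of 0.0982 to 0.138. W23 replicates 2 and 3 differed by an SD of 0.161, whereas W23 replicate 1 differed from them by 0.443 and 0.41. Single arrays of W23 replicates 2 and 3 differed by 0.172 to 0.193, above the technical range, so they were kept as separate replicates and were also merged as an alternative. In Wf9, replicates 2 and 3 differed by 0.643, and replicate 1 by 0.395 and 0.411 from them. Nothing in the labels ties a replicate number to a shared growth of the lines.

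W23 and Wf9 leaves differed at 1273 of 8346 probe sets, 15.3% of those tested. Limma was fitted to log2(signal + 16) over all 12 replicates of the 4 lines, with Benjamini-Hochberg adjustment and a threshold of 0.05, and 2252 probe sets had an unadjusted p under 0.05. Signals were higher in W23 at 621 probe sets (7.44%) and higher in Wf9 at 652 (7.81%), and the median difference over all probe sets was -0.014. Differences of at least 2-fold on the log2(signal + 16) scale were called at 370 probe sets higher in W23 (4.43%) and at 338 higher in Wf9 (4.05%). At least 8-fold, the counts were 27 and 31, and at least 32-fold they were 3 and 3. Of the 1273 probe sets, 1266 had replicates of W23 and Wf9 that did not overlap, against 2967 of all 8346. For the other pairs of lines the same fit called 14.7% (B73 and Mo17), 16% (B73 and W23), 14.5% (B73 and Wf9), 13.9% (Mo17 and W23) and 16.3% (Mo17 and Wf9). These comparisons share samples and are given only for scale.

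**Figure D1:**
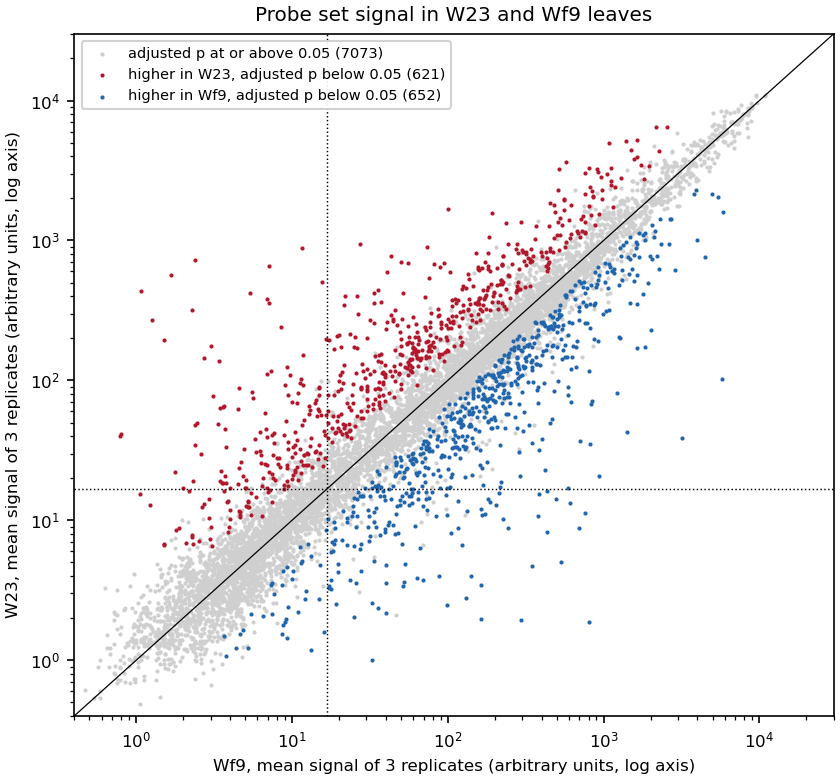
Mean signal of 3 replicates in W23 (vertical) against Wf9 (horizontal), both log axes, 1 point per probe set, with dotted lines at the background of 16.7 and a diagonal of equal signal. The 621 probe sets higher in W23 (red) and the 652 higher in Wf9 (blue) lie on both sides at all signal levels, and several are bright in 1 line and below the dotted line in the other.

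The scatter of mean signals shows differences from background to bright signal and others between 2 levels above background. The largest belonged to probe sets with no gene name here. Zm3.9407.1.A1_at gave 43.4, 33 and 39.5 in W23 replicates 1, 2 and 3, the order used throughout, and 3134, 3767 and 2714 in Wf9. Zm3.16786.1.A1_at gave 123, 91.6 and 92.1 in W23 and 5683, 7257 and 4418 in Wf9. In both, every Wf9 replicate lay far above every W23 replicate, with log2 differences (W23 minus Wf9) of -5.88 ± 0.17 (SE, adjusted p = 2.83e-09) and -5.60 ± 0.24 (adjusted p = 2.76e-08). In the other direction, Zm3.6656.1.A1_at gave 750.2, 687 and 749 in W23 and 2, 1.65 and 3.5 in Wf9. Zm3.8737.1.A1_at gave 619.9, 518 and 567 in W23 and 1.2, 0.75 and 3.1 in Wf9. Wf9 was below background on all its arrays for both, so W23 was at least 43.6-fold and at least 33.8-fold higher, as the ratio of geometric means with signals below background raised to it.

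Of 852 probe sets with a gene name, which stand for 579 genes, 127 passed the threshold, or 14.9%, with 73 higher in W23 and 54 higher in Wf9. The following genes are the 15 with the largest excess in each line, together with members of gene lists given by role.

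**Figure D2:**
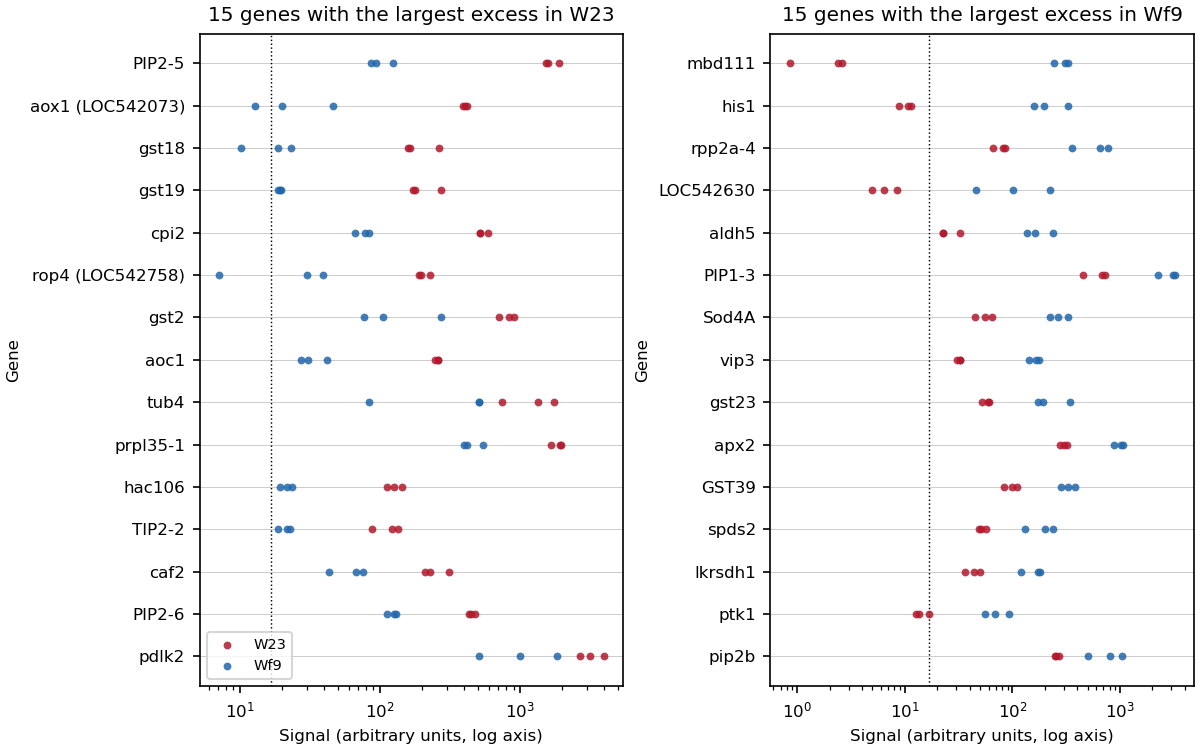
Signals of the 3 replicates of W23 (red) and Wf9 (blue) for the 15 named genes with the largest excess in W23 (left) and in Wf9 (right), log axes, dotted line at the background of 16.7. The replicates of the lines do not overlap for any of these genes, which the choice of genes required, and mbd111, his1 and LOC542630 lie left of the background line in W23.

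Water channels were called more often than other named groups of 10 or more probe sets. Of 34 probe sets for 28 genes, 13 were higher in W23 and 3 were higher in Wf9, together 47.1% against 15.3% of all probe sets. The called sets stood for 11 genes, with 10 genes on the W23 side and 2 on the Wf9 side, since PIP1-3 was on both. The median difference over all 34 was 0.09 against -0.014 for all probe sets. PIP2-5, a plasma membrane aquaporin, gave 1903, 1542 and 1588 in W23 and 125, 93.2 and 86 in Wf9. W23 was 16.7-fold higher, with a log2 difference of 3.86 ± 0.24 (adjusted p = 4e-07), the largest among named genes in that direction. Its paralog PIP2-6 gave 431, 480.2 and 447 in W23 and 127, 130.4 and 112 in Wf9, a 3.68-fold ratio (1.75 ± 0.32, adjusted p = 0.00249). The second PIP2-6 probe set was close in size, at 1.58 ± 0.22 (adjusted p = 0.000391).

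Among channels of the vacuole membrane, TIP2-2 gave 88.4, 134 and 123 in W23 and 18.7, 21.7 and 22.7 in Wf9, close to background. The difference was 1.81 ± 0.18 (adjusted p = 2.35e-05) and the replicates did not overlap. NIP3-1, of the NIP family that in plants includes channels for small solutes such as boric acid, gave 115, 86 and 74.2 in W23 and 30.3, 30.3 and 31 in Wf9 (1.19 ± 0.16, adjusted p = 0.000315). All 3 NIP3-1 probe sets were called higher in W23, although the dimmest had no Wf9 signal above background and only part of its W23 arrays above it. Further channels higher in W23, named after their values were seen, were PIP1-2 (2818 against 962 in mean signal), NIP2-3 (864 against 275), TIP2-1 (2645 against 1119), TIP1-2 (89 against 15) and pip2c (118 against 57.2). TIP2-1 had a second probe set with 1905 and 1941, where the difference was 0.06 and the adjusted p was 0.942. For TIP1-2, W23 replicate 1 stood at 183 and the other W23 replicates at 43.2 and 40.4. The pip2c call was lost without any 1 of 5 replicates, Wf9 replicate 3 being the exception. The TIP1-2 call was lost without Wf9 replicate 2 (adjusted p = 0.0878) or Wf9 replicate 3 (adjusted p = 0.0719).

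PIP1-3 gave opposite results from different probe sets. Zm3.16315.1.A1_at gave 456, 722 and 680.2 in W23 and 3104, 3207 and 2271 in Wf9, 4.66-fold higher in Wf9 (-2.19 ± 0.25, adjusted p = 6.47e-05). Its companion Zm1.16315.1.S1_at was also higher in Wf9 (-1.30, adjusted p = 0.00222). Zm3.573.1.A1_at, which carries the same gene name, gave 3413, 3111 and 2493 in W23 and 1212, 925 and 997 in Wf9, the other direction (1.51, adjusted p = 0.00191). That probe set has the cluster number of the PIP1-2 probe set Zm1.573.1.A1_at, whose signals were 3140, 2915 and 2398 against 1131, 816 and 939. These genes are close paralogs, and which transcript each probe set measured is uncertain. The other channel higher in Wf9 was pip2b (PIP2-2), with 270, 254 and 251 in W23 and 808, 1039 and 506 in Wf9 (-1.49 ± 0.39, adjusted p = 0.0202). The pip2b call was lost when any of 5 single replicates was left out, Wf9 replicate 3 being the exception. The brightest channels did not differ past the threshold, as with NIP2-2, a relative of the silicon channel of rice, at 5751, 5466 and 5524 in W23 and 5550, 5995 and 4987 in Wf9.

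**Figure D3:**
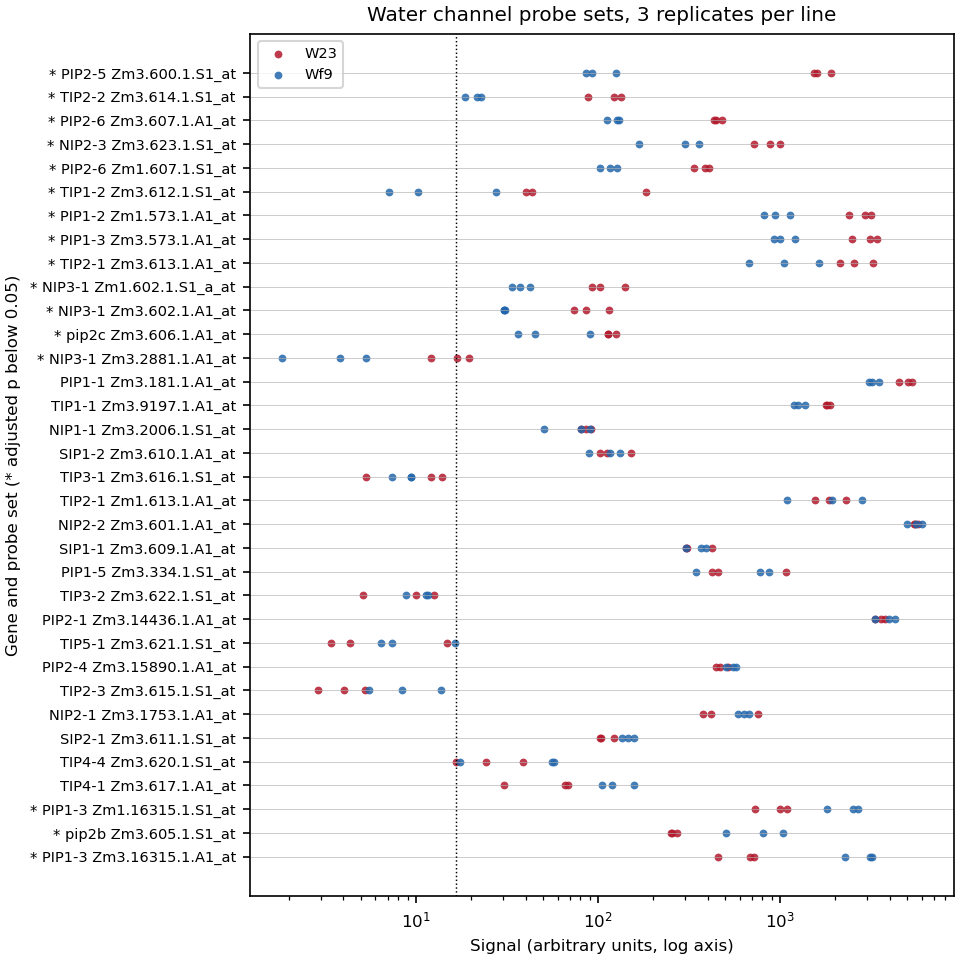
Signals of all 34 water channel probe sets in the 3 replicates of W23 (red) and Wf9 (blue), ordered by the difference between the lines, log axis, dotted line at the background of 16.7, with an asterisk where the adjusted p was below 0.05. The 13 called sets at the top are higher in W23, the 3 at the bottom are higher in Wf9, and the 2 lines overlap or lie close in between.

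The plot of all 34 probe sets shows that the called channels ranged from near background to 3413 units, and that uncalled ones covered the same range. Leaving out 1 replicate at a time gave 11 or 12 calls higher in W23 and 2 or 3 higher in Wf9.

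Glutathione transferases differed in both directions. Of 52 probe sets for 29 genes, 10 were higher in W23 and 7 in Wf9, or 32.7% against 15.3% of all probe sets. Their median difference was 0.08. With W23 and Wf9 fitted alone, 13 were higher in W23 and 12 in Wf9. The called sets on the W23 side stood for 6 genes and those on the Wf9 side for 4. gst18 gave 263, 160.1 and 163 in W23 and 23.1, 10.2 and 18.8 in Wf9, which is close to background, a ratio of at least 9.82-fold (2.65 ± 0.33, adjusted p = 0.000142). gst19 gave 272, 177 and 172 in W23 and 19.4, 18.9 and 19.6 in Wf9 (2.63 ± 0.32, adjusted p = 0.000137). Of 3 further gst19 probe sets, 2 had signal in W23 and none above background on any Wf9 array, and the brighter of them was at least 6.4-fold higher in W23. The last gst19 probe set did not pass (0.39, adjusted p = 0.351). gst2, also known as GST4, gave 713, 832 and 902 in W23 and 105, 77.4 and 271 in Wf9 (2.49 ± 0.72, adjusted p = 0.0363). Its call was lost without any 1 of 5 replicates, Wf9 replicate 3 being the exception.

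Other members higher in W23, named after their values were seen, were GST26 (61 against 13 in mean signal), gst10 (162 against 78.1) and gst14 (22.1 against 7.13). The gst10 call was lost whichever replicate was left out, and that of gst14 without Wf9 replicate 2 (adjusted p = 0.0561). A second gst10 set, at 162 against 85, did not pass (0.82, adjusted p = 0.061). Neither did a second gst14 set, at 27.1 against 16.3 (0.42, adjusted p = 0.155). On the Wf9 side, gst23 gave 52.3, 58.7 and 60.8 in W23 and 193, 171 and 341 in Wf9, a 3.91-fold ratio (-1.72 ± 0.34, adjusted p = 0.00409). GST39 gave 84.2, 110.3 and 98.8 in W23 and 283, 378 and 327 in Wf9 (-1.60 ± 0.23, adjusted p = 0.00043), and all 3 of its probe sets passed. Also higher in Wf9, named after their values were seen, were gst17 (241 against 449) and gst3a (110.3 against 212). The gst3a call was lost without W23 replicate 2 or 3 or Wf9 replicate 1 or 2. A second gst3a set overlapped between the lines and did not pass (-0.68, adjusted p = 0.0798). gst31 did not pass with any of 5 probe sets, although the W23 and Wf9 replicates did not overlap in any of them. Its largest difference was -2.46 (adjusted p = 0.0975), and Wf9 replicate 3 stood at 599 against 264 and 204 in the other Wf9 replicates. B73, whose spread also enters the fit, had a mean of 336 and an SD of 416 at that set. In Wf9, replicate 3 was the highest for gst2, gst23 and gst31.

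Among 16 probe sets for antioxidant enzymes and thioredoxins, 0 were higher in W23 and 3 were higher in Wf9, by limma, a count given again without each replicate in turn, and 0 and 4 had an unadjusted p under 0.05. The share called, 18.8%, was near the 15.3% of all probe sets, of which 7.81% were higher in Wf9. Their median difference was -0.22. Sod4A, a cytosolic copper-zinc superoxide dismutase, gave 64.6, 55.6 and 44.4 in W23 and 325, 221 and 267 in Wf9, a 4.97-fold ratio (-2.02 ± 0.34, adjusted p = 0.0015). A second probe set named Sod4A gave 219, 314 and 315 against 337, 346 and 411 and did not pass (-0.36, adjusted p = 0.465). sod2, also a superoxide dismutase, gave 317, 342 and 339 in W23 and 719.8, 682 and 682 in Wf9 (-1.03 ± 0.22, adjusted p = 0.00781). apx2, an ascorbate peroxidase that uses ascorbate to reduce hydrogen peroxide, gave 319, 276 and 303 in W23 and 873, 1022 and 1059 in Wf9, 3.28-fold higher in Wf9 (-1.66 ± 0.22, adjusted p = 0.000253). All W23 replicates lay below all Wf9 replicates for these 3 genes.

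Alternative oxidase, which carries electrons to oxygen in mitochondria without pumping protons, differed in opposite directions at 2 genes. The gene listed as LOC542073 (aox1) gave 392, 405 and 416 in W23 and 46.1, 12.9 and 19.9 in Wf9, a ratio of at least 16.3-fold (3.39 ± 0.30, adjusted p = 8.57e-06). The gene listed as LOC542074 (aox1, aox2) gave 25.8, 19 and 23.9 in W23 and 65.6, 63.9 and 132 in Wf9 (-1.35 ± 0.32, adjusted p = 0.0135). The second call was lost without W23 replicate 2 (adjusted p = 0.0551) or Wf9 replicate 3 (adjusted p = 0.0524). In the list of 23 probe sets for mitochondrial proteins, 4 were higher in W23 and 2 in Wf9, with a median of 0.01. The share called was 26.1%, against 15.3% of all probe sets. pdlk2, a pyruvate dehydrogenase kinase, which switches off the entry of pyruvate into respiration, gave 3963, 2691 and 3186 in W23 and 997, 1839 and 509.8 in Wf9 (1.72 ± 0.36, adjusted p = 0.00648). aldh5, an aldehyde dehydrogenase, was the reverse, at 22.7, 22.5 and 32.7 in W23 and 163, 137 and 237 in Wf9 (-2.19 ± 0.49, adjusted p = 0.00915). The remaining calls higher in W23 were 2 probe sets of rf2c, an aldehyde dehydrogenase gene. It completes the count and was named after its values were seen, with means of 359.8 and 326 in W23 against 150.4 and 134 in Wf9. The list was drawn up by gene name, and whether the rf2c product acts in mitochondria was not tested. Both rf2c calls were lost without any 1 of 5 replicates, Wf9 replicate 3 being the exception.

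Hormone genes differed at few members. Allene oxide cyclase, which makes a precursor of jasmonate, a defence and wound hormone, is encoded by aoc1. Its brightest probe set gave 262, 260.4 and 247 in W23 and 42.2, 30.7 and 27.4 in Wf9, a 7.85-fold ratio (2.48 ± 0.20, adjusted p = 5.06e-06). A second aoc1 set had the same direction (1.88 ± 0.18, adjusted p = 1.77e-05), but 2 others of that gene name did not pass, with differences of -0.07 and 0.05. These 2 calls were the only ones among 13 probe sets for jasmonate, ethylene and other hormone synthesis, 15.4% in all, which is near the 15.3% of all probe sets. opr3, whose part in jasmonate synthesis was not tested, was below background on all W23 arrays and gave 20.1, 24.6 and 28.6 in Wf9. It did not pass (-0.93 ± 0.56, adjusted p = 0.346), although it did in 2 of 17 alternatives. The fit used 1 estimate of spread for all 4 lines, and opr3 stood at 4.8, 5.75 and 137 in the B73 replicates.

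Response regulators RR4 and RR6 of cytokinin signalling were higher in W23. Of 10 probe sets for 7 genes of cytokinin signalling, 3 were higher in W23 and 0 in Wf9 by limma (5 and 0 at an unadjusted p under 0.05), with a median of 0.58. The 3 calls, for 2 genes, were 30% of the list, against 7.44% of all probe sets higher in W23. RR6 gave 77.5, 45.2 and 43.6 in W23 and 25.5, 15.5 and 14.3 in Wf9 (1.03 ± 0.23, adjusted p = 0.00915). The other RR6 set gave 188, 70.5 and 74.6 against 51.9, 18.7 and 24.4 (1.36 ± 0.38, adjusted p = 0.0297), and replicate 1 was the highest in each line. That call was lost without W23 replicate 1 (adjusted p = 0.108), Wf9 replicate 2 (0.107) or Wf9 replicate 3 (0.0852). RR4 gave 61.5, 34.7 and 41.8 in W23 and 21.9, 21.8 and 15.1 in Wf9 (0.78 ± 0.18, adjusted p = 0.00907), while a second RR4 set had an adjusted p of 0.0929. These regulators are of the kind that cytokinin induces within minutes and that damp its signal.

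The drought-response gene aba1, whose synonym asr1 stands for abscisic acid, stress and ripening, was bright in both lines. It gave 972, 1056 and 996 in W23 and 2220, 1536 and 1769 in Wf9 (-0.85 ± 0.18, adjusted p = 0.00617). With its second probe set it made up the 2 calls among 6 probe sets of the list (33.3%, against 15.3% of all probe sets). The second call was lost without any 1 of 5 replicates.

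Chromatin proteins included the clearest on-or-off contrasts among named genes. mbd111, a protein with a methyl-CpG-binding domain that in other species reads DNA methylation, gave 0.85, 2.4 and 2.6 in W23 and 311, 329 and 243 in Wf9. All W23 arrays were below background, so Wf9 was at least 17.5-fold higher (-4.11 ± 0.19, adjusted p = 3.95e-08). The other 5 methyl-CpG-binding genes on the array did not pass, as with mbd105 at 592, 499.9 and 510 in W23 and 558, 646 and 484 in Wf9. his1, annotated as a histone H1, the linker histone between nucleosomes, gave 8.8, 11.5 and 10.6 in W23 and 329, 158 and 196 in Wf9, at least 13-fold higher in Wf9 (-3.15 ± 0.36, adjusted p = 6.97e-05). It was the only call among 8 probe sets for histones (12.5%, against 15.3% of all probe sets). In that list the gene his1a gave 2768, 2265 and 2012 in W23 and 2440, 1589 and 1708 in Wf9.

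Among 58 probe sets for other chromatin factors, 3 were higher in W23 and 1 in Wf9, or 6.9%, below the share of all probe sets. hac106, a histone acetyltransferase, gave 144, 112 and 127 in W23 and 21.8, 19.3 and 23.6 in Wf9, a 5.95-fold ratio (1.93 ± 0.31, adjusted p = 0.000893), and its second probe set had the same direction (1.62 ± 0.28, adjusted p = 0.00156). hda113, a histone deacetylase, was higher in Wf9, at 111, 90.5 and 113 against 207, 191 and 188 (-0.81 ± 0.18, adjusted p = 0.00784). dmt106, a DNA methyltransferase, gave 34.2, 27.5 and 22.5 in W23 and 17, 14.3 and 18 in Wf9, close to background (0.44 ± 0.13, adjusted p = 0.0397). The dmt106 call was lost without any 1 of 5 replicates. Leaf development genes were mostly dim, with 13 of 27 probe sets at or below background on all arrays, and the only call among them, yabby15, was of signals at or below background in both lines.

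Photosynthesis transcripts did not differ past the threshold in the main fit, with 1 exception. Of 7 probe sets for the mesophyll C4 cycle and 8 for bundle sheath decarboxylation and the Calvin cycle, 0 and 0 were called by limma, and 0 and 1 had an unadjusted p under 0.05. With W23 and Wf9 fitted alone, 1 of these 8 was higher in W23 and 1 in Wf9. With replicate number added to the fit, 1 of the 8 was higher in Wf9, and without 1 B73 array 1 was higher in W23. Ppdk1, pyruvate phosphate dikinase, which regenerates the CO2 acceptor of the C4 cycle, gave 11988, 9856 and 11005 in W23 and 11060, 13144 and 8544 in Wf9 (0.02 ± 0.23, adjusted p = 0.973). rbcs1, the small subunit of Rubisco, gave 8772, 7654 and 8135 in W23 and 6621, 7670 and 5214 in Wf9 (0.35 ± 0.23, adjusted p = 0.399). The lines overlapped for both of these probe sets. A further rbcs1 set gave 4734, 4392 and 5083 in W23 and 2145, 2231 and 1908 in Wf9, without overlap, and did not pass (1.17 ± 0.60, adjusted p = 0.238). B73, whose spread also enters the fit, had a mean of 3041 and an SD of 2142 at that set. The exception was pgr5, a thylakoid protein needed for cyclic electron flow in Arabidopsis, with 4587, 3538 and 3806 in W23 and 1702, 1791 and 1430 in Wf9, a 2.43-fold ratio (1.27 ± 0.16, adjusted p = 0.000189). It was the only call among 18 probe sets for light harvesting, photosystems and ferredoxins (5.56%, against 15.3% of all probe sets). The carotenoid enzyme vp9 gave 293, 363 and 403 in W23 and 358, 325 and 354 in Wf9, and did not pass (adjusted p = 0.979). Neither did the other probe set of its list of 2, of which 1 had an unadjusted p under 0.05.

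Genes of plastid translation and splicing were higher in W23 at prpl35-1 and caf2. prpl35-1, a protein of the plastid ribosome, gave 1656, 1956 and 1919 in W23 and 398, 418 and 542 in Wf9, a 4.11-fold ratio (2.00 ± 0.16, adjusted p = 3.94e-06). caf2, which acts in the splicing of chloroplast introns in maize, gave 313, 209.9 and 229 in W23 and 75.5, 67.6 and 43.7 in Wf9 (1.77 ± 0.22, adjusted p = 0.000142). Of 6 probe sets for thylakoid and plastid protein import, 0 passed by limma and 1 had an unadjusted p under 0.05. The brightest, bsd2, needed for Rubisco accumulation in the bundle sheath, gave 543, 583 and 539 in W23 and 507, 608 and 459.8 in Wf9.

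In the cytosol, the acidic ribosomal protein gene rpp2a-4 went the other way, at 66.3, 82.4 and 85.3 in W23 and 647, 358 and 771 in Wf9, a 7.22-fold ratio (-2.62 ± 0.30, adjusted p = 7.86e-05). A related stalk protein, rpp1a, was higher in W23, at 273, 347 and 336 against 139, 83.2 and 183 (1.20 ± 0.28, adjusted p = 0.011), while its second probe set did not pass (0.69, adjusted p = 0.144). These and prpl35-1 were the 3 calls among 32 probe sets for ribosomal proteins, 9.38% against 15.3% of all probe sets. Of 26 probe sets for translation factors, 0 were higher in W23 and 2 in Wf9 by limma (1 and 6 at an unadjusted p under 0.05). The share called, 7.69%, was below the 15.3% of all probe sets. eif3, a subunit of the initiation factor that binds the small ribosomal subunit, gave 108, 123 and 118 in W23 and 253, 213 and 253 in Wf9 (-0.95 ± 0.15, adjusted p = 0.000781). eif7, the cap-binding factor eIFiso4E, gave 202, 223 and 189 in W23 and 352, 349 and 343 in Wf9 (-0.72 ± 0.18, adjusted p = 0.0144), and was lost without W23 replicate 3 or Wf9 replicate 1. A second eif7 set did not pass (-0.44, adjusted p = 0.0945).

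Sucrose enzymes differed in both directions. Sucrose synthase cleaves sucrose where sugar is used. sus1 gave 304, 321 and 206 in W23 and 142, 108 and 123 in Wf9 (1.04 ± 0.28, adjusted p = 0.0222), and its second set had the same difference (1.04 ± 0.32, adjusted p = 0.045). Both sus1 calls were lost without W23 replicate 1, W23 replicate 2, Wf9 replicate 2 or Wf9 replicate 3. sus2 was higher in Wf9, at 38.8, 21.8 and 24.2 against 105, 96.2 and 70.4, a 3.26-fold ratio (-1.27 ± 0.27, adjusted p = 0.00681). SPP2, sucrose-phosphate phosphatase, the last step of sucrose synthesis, was below background on all W23 arrays and gave 29.2, 43.9 and 31.5 in Wf9, at least 2.05-fold higher there (-1.03 ± 0.16, adjusted p = 0.000874). These were the 4 calls among 9 probe sets of the list (44.4%, against 15.3% of all probe sets).

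Among probe sets for starch enzymes, 2 of 11 were called (18.2%), near the 15.3% of all probe sets. sbe1, a starch branching enzyme, gave 81.2, 92.4 and 86.5 in W23 and 34.7, 24.6 and 31.6 in Wf9 (1.16 ± 0.19, adjusted p = 0.00124). sh2, which encodes a subunit of ADP-glucose pyrophosphorylase best known from the endosperm, was faint, at 23.4, 21.9 and 19.6 in W23, and below background on all Wf9 arrays, at least 1.29-fold higher in W23 (0.68 ± 0.10, adjusted p = 0.000451). In glycolysis and fermentation, 1 of 21 probe sets was higher in W23 and 2 in Wf9, 14.3% in all, below the 15.3% of all probe sets. ald1, an aldolase, gave 905, 1292 and 1189 in W23 and 1808, 1891 and 1850 in Wf9 (-0.72 ± 0.18, adjusted p = 0.0146), a call lost without W23 replicate 1 (adjusted p = 0.0638). A second ald1 set did not pass (-0.48, adjusted p = 0.0841). eno1, an enolase, gave 2747, 2699 and 2834 in W23 and 1637, 1990 and 1823 in Wf9 (0.60 ± 0.17, adjusted p = 0.0323), lost without any 1 replicate but Wf9 replicate 2. The other 4 eno1 probe sets did not pass, and the brightest had means of 3499 in W23 and 2469 in Wf9 (0.50, adjusted p = 0.0556). adh2, an alcohol dehydrogenase, gave 562, 617 and 523 in W23 and 932, 881 and 1002 in Wf9 (-0.71 ± 0.21, adjusted p = 0.0354), lost whichever replicate was left out.

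Of 11 probe sets for nitrogen assimilation and amino acids, 3 were called, all higher in Wf9, against 7.81% of all probe sets in that direction. The 3 calls stood for 2 genes, and 1 was left without W23 replicate 2, W23 replicate 3 or Wf9 replicate 1, and with W23 and Wf9 fitted alone. lkrsdh1, the bifunctional enzyme that degrades lysine, gave 49.9, 36.5 and 44.2 in W23 and 182, 173 and 119 in Wf9, a 3.6-fold ratio (-1.53 ± 0.33, adjusted p = 0.00681). The other 2 calls were for gln3, a glutamine synthetase, with signals of 14.2 to 25.9 in W23 and 26.4 to 44.2 in Wf9, and both were lost without W23 replicate 2 or 3 or Wf9 replicate 1 or 3. A further gln3 probe set overlapped between the lines, with means of 34.7 and 44 (-0.24, adjusted p = 0.522). spds2, spermidine synthase, which makes a polyamine, gave 56.9, 51.5 and 49.3 in W23 and 239.8, 199 and 132 in Wf9 (-1.55 ± 0.33, adjusted p = 0.00666).

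Of 7 probe sets for proteases linked to leaf senescence, 2 were called, both higher in Wf9, against 7.81% of all probe sets in that direction. see2b, a vacuolar processing protease first found in senescing maize leaves, gave 2317, 1752 and 2054 in W23 and 5647, 6521 and 4144 in Wf9, a 2.64-fold ratio (-1.39 ± 0.20, adjusted p = 0.000476). ccp2 (see1), a cysteine protease, gave 1363, 1382 and 1557 in W23 and 2614, 2990 and 2455 in Wf9 (-0.90 ± 0.25, adjusted p = 0.0307), and its call was lost whichever replicate was left out. Another cysteine protease gene of the list, ccp1, gave 2459, 4933 and 4768 in W23 and 3799, 4115 and 4260 in Wf9 and did not pass. cpi2, a cystatin, which inhibits cysteine proteases, was the reverse at 1 probe set, with 588, 515 and 515 in W23 and 83.3, 66.3 and 77.8 in Wf9, a 7.14-fold ratio (2.60 ± 0.22, adjusted p = 5.86e-06). The other 3 cpi2 probe sets did not pass, and the brightest of them had means of 3490 in W23 and 3326 in Wf9. No other of the 12 probe sets for pathogenesis-related proteins and protease inhibitors passed.

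Tubulin and cellulose synthase calls rested on particular replicates. Of 24 probe sets for actins, tubulins and profilins, 5 were higher in W23 and 0 in Wf9 by limma (8 and 0 at an unadjusted p under 0.05), with a median of 0.55. The share called was 20.8%, against 15.3% of all probe sets, of which 7.44% were higher in W23. tub4, a beta-tubulin of the microtubules, gave 750.3, 1748 and 1335 in W23 and 512, 84.3 and 506 in Wf9 (2.02 ± 0.58, adjusted p = 0.035). Wf9 replicate 2 lay far below the other Wf9 replicates, and without it the difference was 1.22 (adjusted p = 0.0802). tub3 gave 2196, 2463 and 2190 in W23 and 1187, 389 and 1343 in Wf9 (1.40 ± 0.38, adjusted p = 0.0244). tua4, an alpha-tubulin, passed at a faint set (0.63, adjusted p = 0.0379), while its bright sets, at 3015 and 3014 in W23 against 1724 and 1783 in Wf9, did not. Without Wf9 replicate 2, 1 of the 24 probe sets passed, 1 of tub3. By limma 0 passed without W23 replicate 2, without W23 replicate 3, with these merged, or with W23 and Wf9 fitted alone.

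The same replicate was low for cell wall genes. cesa5, a cellulose synthase, gave 299.6, 474 and 431 in W23 and 214, 108 and 266 in Wf9 (1.03 ± 0.30, adjusted p = 0.0362). cesa8 gave 91.2, 243 and 213 in W23 and 70.7, 23.3 and 97.7 in Wf9, overlapping between the lines (1.35 ± 0.39, adjusted p = 0.0375). These were the 2 calls among 22 probe sets for cell wall synthesis and expansins (9.09%, against 15.3% of all probe sets). Without Wf9 replicate 2 neither passed (adjusted p = 0.12 and 0.127). Neither passed without W23 replicate 2, W23 replicate 3 or Wf9 replicate 1 either. expa1, an expansin, which loosens growing walls and is named here for that replicate after its values were seen, gave 2393, 184 and 2040 in Wf9 and 1038, 977 and 767 in W23. Without that replicate, 1 probe set of the list was called, of prp2, a faint gene with 18.3, 23.3 and 16.2 in W23 and 33.5, 17.9 and 40.4 in Wf9. What set Wf9 replicate 2 apart was not tested.

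**Figure D4:**
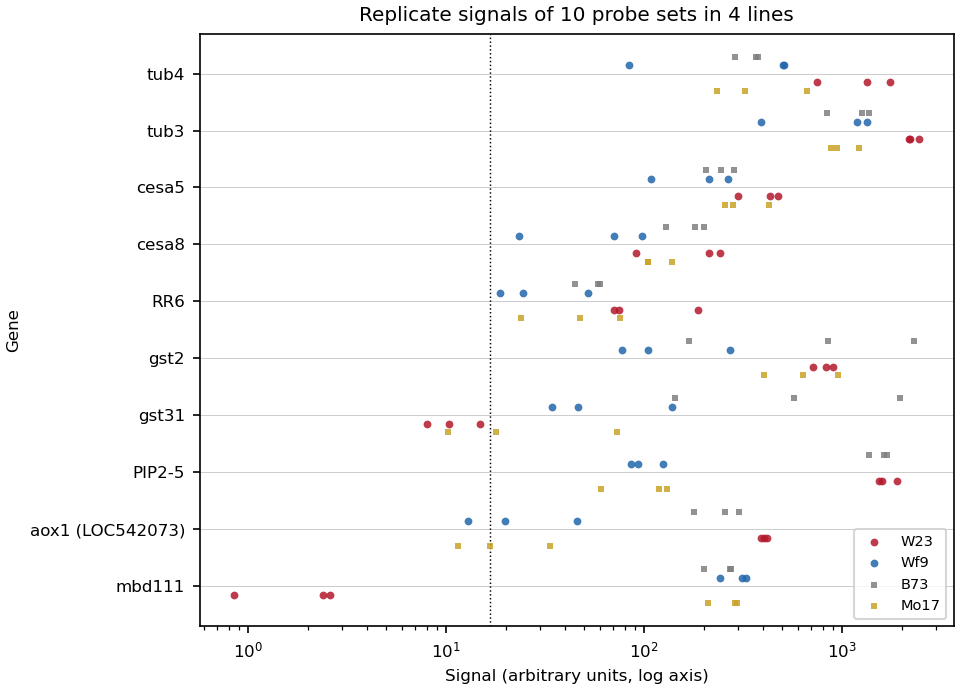
Signals of the 3 replicates of each of the 4 lines for 10 genes chosen to show replicate spread and line contrasts, log axis, circles for W23 (red) and Wf9 (blue), squares for B73 (grey) and Mo17 (yellow), dotted line at the background of 16.7. Wf9 has 1 replicate far below the others for tub4 and tub3 and 1 far above for gst31, whereas PIP2-5, aox1 (LOC542073) and mbd111 show gaps between W23 and Wf9 wider than the spread within either.

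The plot of replicate signals in the 4 lines sets these genes beside PIP2-5 and mbd111. For both, the gap between W23 and Wf9 was wider than the spread within either.

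Signalling genes differed in both directions, with 2 of 17 probe sets higher in W23 and 3 in Wf9, 29.4% in all against 15.3% of all probe sets. The small GTPase gene rop4 (LOC542758), of a family that steers polar growth in plants, gave 196, 229 and 189 in W23 and 39, 7.1 and 30.4 in Wf9. The ratio was at least 7.54-fold (2.50 ± 0.27, adjusted p = 4.86e-05). A second gene also called rop4 (LOC542739) gave 338, 539 and 505 against 390, 338 and 511 and did not pass (0.15, adjusted p = 0.729). rop2 was higher in W23, at 112, 122 and 116 against 67.7, 45.7 and 60.4 (0.86 ± 0.16, adjusted p = 0.00291). MPK4, a mitogen-activated protein kinase, was higher in Wf9, at 111, 175 and 199 against 379, 347 and 497 (-1.27 ± 0.25, adjusted p = 0.00416). ckb1, a regulatory subunit of casein kinase, passed at -0.64 (adjusted p = 0.0223) and was lost without any 1 of 5 replicates. mek1, a kinase gene that completes the count and was named after its values were seen, had means of 408 in W23 and 569 in Wf9 (-0.47, adjusted p = 0.0311), and was lost without any 1 of 5 replicates, W23 replicate 2 being the exception.

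Further named genes with large differences were of other kinds. vip3 gave 32.7, 30.4 and 32.5 in W23 and 164, 143 and 175 in Wf9, a 5.03-fold ratio (-1.88 ± 0.17, adjusted p = 1.25e-05), and its second probe set had the same direction (-1.58, adjusted p = 6.47e-05). ptk1 gave 12.8, 16.7 and 13.4 in W23, at background, and 55.7, 93.1 and 68.9 in Wf9 (-1.53 ± 0.22, adjusted p = 0.000478). At 1 probe set, LOC542630 was below background on all W23 arrays and gave 102, 45.8 and 222 in Wf9, at least 6-fold higher there (-2.40 ± 0.51, adjusted p = 0.00673). Its second probe set gave 21.8, 22.6 and 19.1 in W23, where some arrays were at or below background. In Wf9 that set gave 131, 56.2 and 241 (-1.93 ± 0.56, adjusted p = 0.035). gl8, an enzyme of fatty acid elongation for leaf wax, gave 435, 435 and 353 in W23 and 228, 167 and 252 in Wf9 (0.89 ± 0.20, adjusted p = 0.0081). gpc3, a cytosolic glyceraldehyde-3-phosphate dehydrogenase, passed at 1 of 5 probe sets (1.50, adjusted p = 0.0174, lost without W23 replicate 2 or 3 or Wf9 replicate 1 or 2), while its brightest set had means of 74.4 in W23 and 222 in Wf9 and did not pass (-1.09, adjusted p = 0.21).

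Several lists had 0 calls by limma in either direction, and 0 to 2 of their probe sets had an unadjusted p under 0.05. Their brightest members were hsp70-4, a chaperone, at 3392, 3317 and 3332 in W23 and 2904, 2286 and 3149 in Wf9 (19 probe sets of heat shock proteins), and vpp1, the vacuolar proton-pumping pyrophosphatase, at 3649, 2599 and 2657 against 2740, 2860 and 1898 (5 of proton pumps). The glycine-rich protein gene grp1 gave 4555, 4789 and 4923 in W23 and 4453, 4775 and 4634 in Wf9 (11 probe sets). GIF2, a partner of growth-regulating factors, gave 119, 97.7 and 100.1 against 136, 123 and 117 (14 probe sets). glu2, a beta-glucosidase in a list of 3 for benzoxazinoids, gave 466, 248 and 216 against 829, 516 and 456 with an adjusted p of 0.486. The zein z1C1_4 and the root gene nas1 were the brightest of their organ lists, with highest replicates of 10.7 and 19.4. In the pollen list, mfs2 passed and was higher in Wf9, at 23.6, 14.1 and 18.9 in W23 against 86.3, 69.3 and 57.6 in Wf9 (-1.31, adjusted p = 0.000507), and mgs1 passed with signals below background in both lines.

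**Figure D5:**
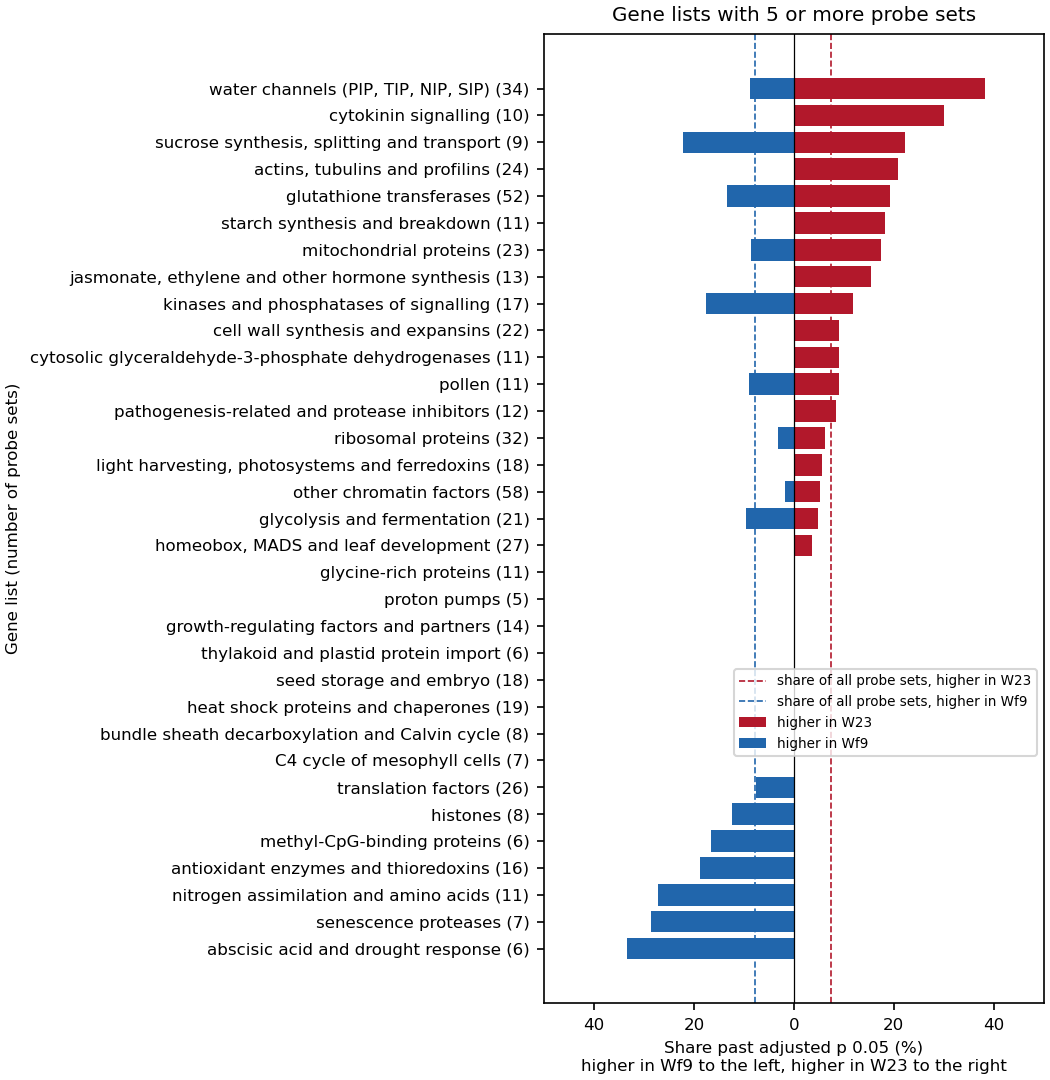
Share of the probe sets of each gene list that passed the adjusted p threshold, higher in W23 to the right (red) and higher in Wf9 to the left (blue), for lists of 5 or more probe sets, whose number is in brackets, with dashed lines at the shares of all probe sets (7.44% and 7.81%). Water channels reach farthest to the right, and abscisic acid and senescence proteases are the farthest to the left among lists with no call on the W23 side.

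The chart of gene lists sets these counts against the shares of all probe sets, and the lists of few probe sets rest on 1 to 4 calls each.

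Signal on every array of 1 line and none above background on any array of the other was found at 89 probe sets for W23 (1.07%) and at 72 for Wf9 (0.863%). Of these, 84 and 67 also passed the test, and 7 and 7 had gene names. On the W23 side the named sets were 2 of gst19 with sh2 and gst14, and annexin2, pOMT1 and LOC542057. The other gst14 set had signal above background on some Wf9 arrays. annexin2, of a family of calcium-binding membrane proteins, gave 95.9, 60.8 and 49.2 in W23 and 10.3, 6.95 and 14.9 in Wf9, at least 3.95-fold higher in W23 (1.64 ± 0.32, adjusted p = 0.00351). LOC542057 gave 26.4, 34.8 and 45.9 in W23, at least 2.07-fold above Wf9, and its other probe set was below background in both lines. pOMT1 reached 31.7, 22.4 and 19.9 in W23 at this set, while its bright sets had signal in both lines, as at 2707 against 1736, and did not pass (adjusted p = 0.454). The call at the faint pOMT1 set was lost without any 1 of 5 replicates, Wf9 replicate 1 being the exception. Another pOMT1 set, with signal in both lines at 63.9 against 36.9, also passed (0.59, adjusted p = 0.0405). On the Wf9 side they were mbd111, his1, LOC542630, SPP2, opr3, gst31 and HMT-2, a homocysteine methyltransferase that makes methionine. HMT-2 gave 43.4, 53.9 and 26.3 in Wf9, at least 2.36-fold above W23 (-1.15 ± 0.26, adjusted p = 0.00868). opr3 and gst31 did not pass in the main fit, but these sets passed in 2 of 17 and 3 of 16 alternatives.

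The levels in B73 and Mo17 placed these contrasts among the 4 lines. Of the 370 probe sets at least 2-fold higher in W23, both B73 and Mo17 were nearer W23 at 157 and nearer Wf9 at 80, and at the others they lay on different sides. Of the 338 at least 2-fold higher in Wf9, both were nearer Wf9 at 135 and nearer W23 at 64. At least 8-fold higher in Wf9, both were nearer Wf9 at 22 of 31 probe sets and nearer W23 at 0. At least 8-fold higher in W23, both were nearer W23 at 10 of 27 probe sets and nearer Wf9 at 3. PIP2-5 had means of 1567 in B73, near W23, and 104 in Mo17, near Wf9. mbd111 was at 249 in B73 and 265 in Mo17, so that W23 alone was at background. gst18 was at 12 in B73 and 17.5 in Mo17, and W23 alone was high, whereas gst19 was at 210.1 in B73 and 244 in Mo17, and Wf9 alone was low.

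Where a gene had several probe sets, calls in opposite directions were rare, but often only part of the sets was called. Of 166 genes with 2 or more probe sets, 42 had a call, and 15 of these had all sets called in the same direction. In 19 genes at least 2 sets were called, all in the same direction, and in 1, PIP1-3, sets were called in opposite directions. A suffix that marks probes matching further sequences was part of 1447 probe set names. Without these, 1067 of the others passed, and 1056 of these had passed in the fit of all probe sets.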

How the data were processed

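Values were the authors' deposited signal intensities, made with MAS5 in GCOS per the submitters' processing notes (versions not given in the sources used here). On each array their trimmed mean, leaving out 2% at either end, was 250.15 to 250.24, so arrays had 1 common scale. The number of arrays, 6 for each line from 3 RNAs, limits the precision. Median signals were 47.4 to 59.8. Of 8475 probe sets, 129 controls were left out. Log2(signal + 16) was averaged over the 2 arrays of an RNA, and limma 3.58.1 in R 4.3.3 (lmFit, eBayes with a trend) was fitted to 12 replicates. Exact zeros (213, all on 1 B73 array) were treated as missing. Gene names came from the platform annotation (1 symbol for 862 probe sets, 838 of them matched in the RefSeq gene table, and none for 7613). The fit was tested on simulated data.

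Genes named by rule were, among named probe sets past the threshold with replicates apart, the 15 with the largest difference in either direction, 1 probe set each. Added were up to 4 members per list by smallest p (or the brightest), the 2 largest unnamed in either direction and every named probe set with signal in only 1 line. The list for anthocyanins had 0 probe sets. Members and lists were chosen with earlier results of these data known. No label ties replicate numbers across lines, so the main fit did not pair them. The alternatives tried are given with their effect in the closing section.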

Additional observations from a re-analysis of the deposited data

How the results depend on the processing

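Of the 102 probe sets past the threshold that were chosen by the naming rule or singled out with it, 4 of them without a gene name, 71 kept the call in every alternative that tested them (15 to 17 for each), 31 lost it in at least 1, and 0 changed direction. Array weights gave 3601 calls against 1273, and 268 members of lists against 94; limma warned that these weights had not converged, and the cause was not tested. A pseudocount of 64 left 212 and 176 probe sets at least 2-fold higher in W23 and in Wf9, against 370 and 338, as a larger added value shrinks log2 differences. With the 95th percentile of the controls as background, 43 probe sets had signal in Wf9 only, against 72. Asking for 2 times the background in the higher line left 42 for W23 and 32 for Wf9, against 89 and 72. Leaving out 1 replicate at a time gave 905 to 1130 calls, 293 to 370 and 296 to 358 at least 2-fold higher in W23 and in Wf9, 96 to 112 and 76 to 93 with signal in W23 or Wf9 only, and 67 to 83 members of lists. With W23 replicates 2 and 3 counted as 1, 908 probe sets passed, all among the 1273. The replicate block gave 1558 calls, 1268 of them shared, and for the list of glutathione transferases 11 higher in W23 and 14 in Wf9. Deviations from the line means correlated at 0.325, -0.669 and 0.49 between same-numbered W23 and Wf9 replicates. Between other-numbered ones they correlated at -0.735 to 0.764. Whether growths were shared between lines was not tested and the labels do not say, so the numbers were not taken as pairs. Signals near the background of 16.7 limit what can be compared, since 2253 probe sets were at or below it on all 12 arrays, and 52 of those passed the threshold.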
